A study of Mus musculus with 28 samples.

Results

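The cytosolic ribosomal protein genes encode the proteins of the ribosome that works in the cytosol. They were taken by symbol, as protein-coding genes named *Rpl* or *Rps* followed by a digit, with *Rplp0*, *Rplp1*, *Rplp2* and *Rpsa* added and the *Rps6k* kinases left out. This rule gave 91 of 27179 genes, of which 56 carry large-subunit symbols and 34 small-subunit symbols. The remaining gene, *Rps19bp1*, encodes a protein that binds RPS19 and is not a part of the ribosome. The RNA-seq tables held values for 90 of the 91 among 15384 genes, and the gene without a value was *Rpl39*. The 91 genes lie on 19 chromosomes, and 31 further genes with matching symbols are typed as pseudogenes and were not counted.

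Each ribosome carries a set of ribosomal proteins wrapped around ribosomal RNA, most of them in a single copy. The small subunit decodes the mRNA, and the large subunit forms peptide bonds and carries the acidic stalk that recruits translation factors. Ribosomal protein mRNAs are short, stable and very abundant in growing cells such as embryonic stem cells, and most begin with a 5′ terminal oligopyrimidine (TOP) tract, an uninterrupted run of C and U through which mTOR and LARP1 control their translation.

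The study depleted SSRP1, 1 of the 2 subunits of the histone chaperone FACT, from mouse embryonic stem cells (mESCs) of the E14 line. KD cells received a combination of 2 lentiviral shRNAs against *Ssrp1* and control cells a scrambled shRNA, with puromycin at 2 μg/ml applied from 48 h after transfection for 24 h in both. Total RNA depleted of ribosomal RNA was sequenced from 4 control and 4 KD libraries with added spike-in RNA. Peak lists of SSRP1 and SUPT16, the other FACT subunit, and chromatin-bound RNA of 2 libraries came from E14 cells with no knock-down in their labels, and the peak lists were called over 2 replicates together.

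RefSeq start sites (GRCm38.p6) were at hand for 69 of the 91 genes. Across the start, a run of at least 8 C or T lay within 2 bases of the annotated first base in 20 of the 69 promoters (29.0%), against 7.36% of all 18458 promoters. The longest 4 runs are shown first, with the run of 7 or more C or T in capitals. The annotated first base is at position 81 of each 100-base stretch. All 4 runs begin before that base, so how much of each is a transcribed TOP tract was not tested.
Rpl7a (chr2:26910727-26910826, + strand, run of 21): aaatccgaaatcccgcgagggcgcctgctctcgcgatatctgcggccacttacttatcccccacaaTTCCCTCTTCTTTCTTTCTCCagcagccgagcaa
Rpl27a (chr7:109519115-109519214, + strand, run of 20): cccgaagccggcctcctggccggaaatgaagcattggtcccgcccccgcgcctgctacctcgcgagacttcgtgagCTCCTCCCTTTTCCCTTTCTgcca
Rpl34 (chr3:130730318-130730417, − strand, run of 20): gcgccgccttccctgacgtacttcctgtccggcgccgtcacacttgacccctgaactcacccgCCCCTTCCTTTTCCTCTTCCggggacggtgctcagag
Rpl35 (chr2:39005112-39005211, − strand, run of 18): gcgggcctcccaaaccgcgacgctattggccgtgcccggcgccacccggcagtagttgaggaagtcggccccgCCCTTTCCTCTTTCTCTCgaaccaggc

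The next stretches belong to genes that the RNA values turn on, and are given on the same layout. *Rps6*, the kinase target, and *Rplp2*, a stalk protein, hold runs of 10, and *Rps21* and *Rpl22l1* head the rises in the small and large subunit.
Rps6 (chr4:86857348-86857447, − strand): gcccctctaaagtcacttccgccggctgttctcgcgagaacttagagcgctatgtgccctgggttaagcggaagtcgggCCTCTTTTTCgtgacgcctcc
Rplp2 (chr7:141447571-141447670, + strand): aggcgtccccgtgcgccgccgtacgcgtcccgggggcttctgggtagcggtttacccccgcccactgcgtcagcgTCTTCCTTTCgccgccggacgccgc
Rps21 (chr2:180257299-180257398, + strand): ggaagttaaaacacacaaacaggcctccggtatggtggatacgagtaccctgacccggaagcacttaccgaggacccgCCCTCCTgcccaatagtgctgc
Rpl22l1 (chr3:28805428-28805527, + strand): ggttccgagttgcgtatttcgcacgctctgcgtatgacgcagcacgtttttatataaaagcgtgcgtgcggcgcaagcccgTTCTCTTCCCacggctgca
Rpl10a and Rps2 are shown for their broad FACT peaks and *Rpl10l* for its fall, and the last 2 have no run that long at the start.
Rpl10a (chr17:28328391-28328490, + strand): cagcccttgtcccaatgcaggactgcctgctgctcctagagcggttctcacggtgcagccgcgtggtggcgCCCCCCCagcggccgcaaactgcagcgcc
Rps2 (chr17:24719983-24720082, + strand): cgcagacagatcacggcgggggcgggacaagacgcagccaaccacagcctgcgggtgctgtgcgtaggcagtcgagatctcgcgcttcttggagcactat
Rpl10l (chr12:66284382-66284481, − strand): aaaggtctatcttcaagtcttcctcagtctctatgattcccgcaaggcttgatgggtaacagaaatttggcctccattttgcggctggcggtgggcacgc

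In all, 5 short motifs were searched on both strands of the 69 windows, which reach from 250 bases before to 50 bases after the start. CTTTC, the core of many TOP tracts, lay within 10 bases before to 15 bases after the start in 16 of 69 (23.2%), against 5.43% of all promoters, and anywhere in the window in 79.7%, against 55.4%. CGGAAG, the core that GABPA and other ETS factors bind, was found in 44 (63.8%), against 21.5% of all promoters and 36.8% of promoters of other genes with a control mean of 100 or more. AAGATGG, the YY1 core, was found in 9 of 69 (against 6.44% of all promoters and 8.94% of those of other abundant genes). TATAAA was found in 8 (11.6%, against 13.1% of all and 9.44% of the other abundant genes). GGGCGG, the GC box, was found in 40 (58.0%), against 46.4% of all and 72.0% of the other abundant genes. These matches describe letters in a window and were not set against binding.

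Read numbers, worked out from the spacing of the deposited values, ran from 4602278 to 6680919 in control and from 9433193 to 19856032 in KD, so the KD libraries were deeper throughout. Values below are normalised read counts, which are reads scaled to the library total (RPM) and then divided by a trimmed-mean (TMM) factor. *Ssrp1* stood at 223 to 261 in the control libraries and at 24.1 to 28.9 in the KD libraries, a log2 fold change of −3.15 ± 0.07 (SE). All 12 mESC marker genes were measured, and their summed level was 1956 to 2066 in control and 5323 to 5804 in KD. A gene is called higher or lower where limma gave an absolute log2 fold change above 1 and a Benjamini-Hochberg adjusted p below 0.01 over all genes, and a gene is said to have risen or fallen where the adjusted p alone passed. Fold changes are on the scale of log2(value + 0.5).

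Ribosomal protein genes rose together upon KD in the scaling to library size. Of 90 measured genes, 56 were called higher and 1, *Rpl10l*, was called lower, beside 8.07% and 20.6% of all genes. By adjusted p alone 87 rose and 2 fell, beside 35.4% and 37.3% of all genes, and only *Rpl32l* passed in neither direction. In 87 genes each KD library lay above each control library, which 35.8% of all genes also showed. The median log2 fold change was 1.09 with quartiles of 0.85 and 1.28, and the median over all genes was −0.03. Both subunits took part, with 31 of 55 large-subunit genes called higher at a median of 1.05 and 25 of 34 small-subunit genes at a median of 1.11. In RNA from whole cultures, fewer cells of a type and less RNA per cell cannot be told apart. The methods state 4 biological replicates of the RNA-seq but do not say that these are the libraries with spike-ins. The p-values measure the spread between the libraries used here.

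**Figure D1:**
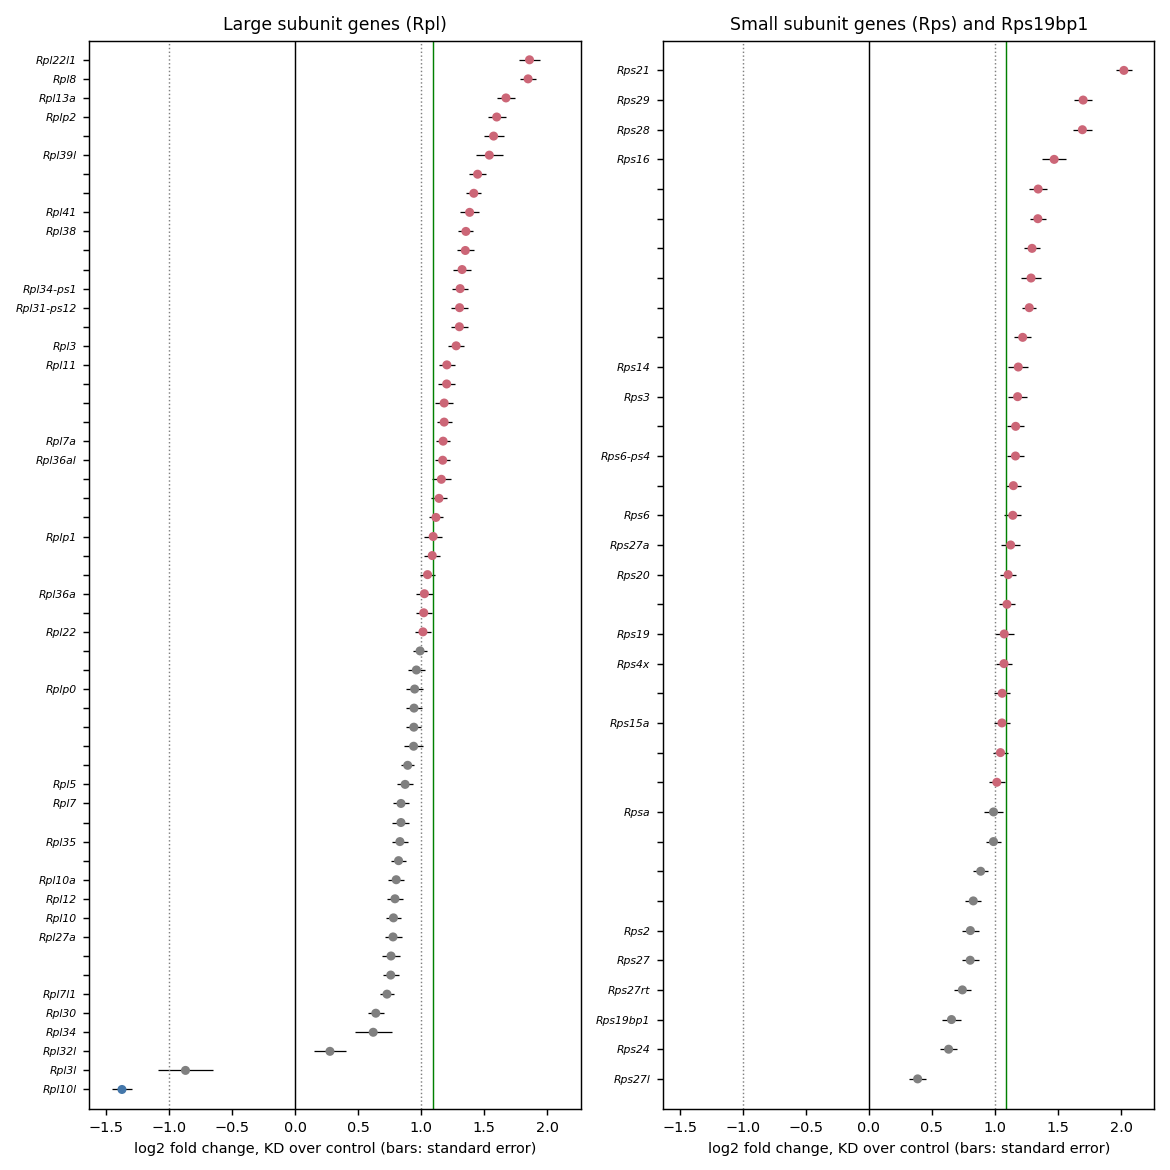
Log2 fold change of KD over control for each of the 90 measured genes, with names beside those described in the text, large subunit on the left and small subunit with *Rps19bp1* on the right, with bars for the standard error, dotted lines at −1 and 1 and a green line at the median of all 90. Red genes were called higher and *Rpl10l*, in blue, lower, and the quartiles of all 90 are 0.85 and 1.28 in the scaling to library size; *Rpl3l*, below 0 here, stands at 0.28 after quantile normalisation and at 0.03 in the spike-in scaling.

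In the large subunit the rise was led by *Rpl22l1*, a paralog of *Rpl22*. Its normalised read counts were 27.0, 23.1, 29.8 and 27.2 in the control libraries and 109, 96.7, 105 and 82.3 in the KD libraries. The lowest KD library stood well above the highest control library, and the log2 fold change was 1.86 ± 0.09 (SE, limma, Benjamini-Hochberg adjusted p = 1.01e-16). *Rpl8*, whose protein sits near the peptidyl transferase centre, had counts of 705, 712, 650 and 670 in control and 2437, 2522, 2566 and 2326 in KD. With no overlap between the groups and a log2 fold change of 1.85 ± 0.06 (SE), it moved per kilobase of exon from rank 15 in control to rank 5 in KD among the 90. *Rpl13a*, which encodes a large-subunit protein with a role outside the ribosome in silencing inflammatory mRNAs, went from 62.0 ± 6.4 to 198 ± 14 (SD, n = 4 each, log2 fold change 1.67).

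In the small subunit *Rps21*, a gene for a protein needed in rRNA maturation, rose most. Its counts were 40.6, 37.5, 39.3 and 38.4 in control and 172, 156, 168 and 145 in KD. The groups lay far apart, at a log2 fold change of 2.02 ± 0.06 (SE, limma, Benjamini-Hochberg adjusted p = 9.77e-20), and 0.364% of all genes had a larger one. *Rps29* and *Rps28*, which encode small proteins of the subunit head, had log2 fold changes of 1.70 and 1.69. *Rps28* stood at 203, 166, 147 and 190 in control and at 616, 555, 581 and 520 in KD, and moved from rank 36 to rank 15 per kilobase. *Rps16*, another protein of the head, had counts of 102, 96.6, 108 and 136 in control and 350, 336, 311 and 235 in KD. Its groups did not overlap, but KD replicate 4 was the lowest of the 4 by a wide step, and the log2 fold change was 1.47 ± 0.10 (SE).

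Genes of the stalk had log2 fold changes from 0.95 to 1.60. *Rplp0*, the anchor of the stalk, had counts of 1082, 931, 905 and 961 in control and 1870, 1885, 1978 and 1740 in KD, a log2 fold change of 0.95 ± 0.07 (SE). *Rplp1* followed at 1.09 ± 0.07, from 785 ± 87 to 1672 ± 120 (SD, n = 4 each). *Rplp2* went from 248, 188, 191 and 234 to 654, 647, 660 and 631, and its log2 fold change of 1.60 ± 0.07 was the largest of the 3. Set against the median ribosomal protein gene of each library, *Rplp2* stood 0.53 higher (limma, Benjamini-Hochberg adjusted p = 1.1e-09) and *Rplp0* at −0.12 (adjusted p = 0.0148). The proteins of *Rplp1* and *Rplp2* pair up on the stalk, and per kilobase *Rplp1* went from rank 2 to rank 3 while *Rplp2* moved from rank 42 to rank 23.

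Members with known roles outside translation, or known from disease, had log2 fold changes from 0.78 to 1.35. *Rps19* and *Rpl5*, both mutated in Diamond-Blackfan anaemia, had log2 fold changes of 1.07 and 0.87. *Rpl11*, which with RPL5 binds MDM2 and so stabilises p53, had 1.20, and *Rpl38*, tied to translation of *Hox* mRNAs, had 1.35. *Rps6*, the target of the S6 kinases, had counts of 852, 767, 759 and 827 in control and 1805, 1769, 1900 and 1602 in KD, with a log2 fold change of 1.14. *Rps3*, which also acts in DNA repair, had 1.18, *Rpsa*, also known as the laminin receptor, 0.99, and *Rps27a*, which is made as a fusion with ubiquitin, 1.12. *Rpl10*, the late-joining protein of the large subunit, had 0.78. All of these passed the adjusted p of limma with Benjamini-Hochberg adjustment and had no overlap between groups, and *Rpl5*, *Rpsa* and *Rpl10* stayed below the fold threshold.

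Few genes went against this rise. *Rpl10l*, an intronless paralog of *Rpl10* known from the male germ line, had counts of 75.8, 80.7, 68.3 and 82.5 in control and 28.3, 26.0, 33.9 and 29.6 in KD. Every KD library lay below every control library, at a log2 fold change of −1.37 ± 0.08 (SE, limma, Benjamini-Hochberg adjusted p = 1.78e-14), which was −0.36 with an adjusted p of 0.251 in the spike-in scaling. *Rpl3l*, the striated muscle paralog of *Rpl3*, stood at 3.81, 6.88, 4.84 and 5.61 in control and at 3.58, 2.11, 2.27 and 2.67 in KD. It fell by 0.87 on the log2 scale at very low levels, and its direction turned in 2 scalings, to 0.28 after quantile normalisation and to 0.03 with spike-ins. *Rpl32l* had counts of 9.80, 9.12, 12.6 and 10.4 in control and 12.1, 12.7, 13.3 and 12.6 in KD, with overlapping groups and a limma adjusted p of 0.0512 after Benjamini-Hochberg adjustment. Its log2 fold change was 0.28, and −0.38 after the correction for exon length described below and −0.14 in RPM.

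The smallest rises in the small subunit were those of *Rps27l*, a p53-induced paralog of *Rps27* (0.39), *Rps24* (0.63), *Rps27rt* (0.74) and, outside the ribosome itself, *Rps19bp1* (0.66). *Rps24* stood at 594, 535, 512 and 551 in control and at 882, 854, 920 and 746 in KD. *Rpl34*, *Rpl30* and *Rpl7l1* had 0.62, 0.64 and 0.73 in the large subunit. The sign of several small rises depended on the scaling. After quantile normalisation *Rps24* came to −0.18 and *Rps27l* to −0.13, and *Rps27l* was also below 0 in RPM (−0.04) and after correction for exon length (−0.40), where *Rps27rt* came to −0.13 and *Rpl34* to −0.03.

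Paralogs were compared with their parent gene inside each library, where a factor common to all genes of the library drops out but quantile normalisation does not. Of 8 listed pairs 6 had both values, and in each of them the ratio of paralog to parent did not overlap between the groups. The exact two-sided permutation test of 4 against 4 libraries gave p = 0.0286 for each pair, the smallest value it can give, and 0.0286 after Benjamini-Hochberg adjustment over the 6. Among all 15384 single genes, 5505 had every KD library above every control library and 5770 had every one below. Ratios of other gene pairs were not computed, so no background share stands beside the 6. *Rpl10l* made up 16.2% ± 1.2 of its pair with *Rpl10* in control and 4.14% ± 0.43 in KD (SD, n = 4 each), a difference in log2 ratio of −2.15. *Rpl22l1* went the other way, from 8.26% ± 0.76 to 14.05% ± 0.56 of its pair with *Rpl22*, a difference of 0.84, while both genes of this pair rose. The share of *Rps27l* in its pair with *Rps27* dropped from 38.8% ± 0.7 to 32.2% ± 0.4, a difference in log2 ratio of −0.42. *Rpl3l* against *Rpl3* differed by −2.15 at a share of 0.798% in control and 0.166% in KD.

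The remaining pairs differed least. *Rpl36al*, which encodes nearly the same protein as *Rpl36a*, held 53.8% ± 1.2 of its pair in control and 56.3% ± 1.6 in KD, a difference of 0.14. *Rpl7l1* against *Rpl7*, whose log2 fold change was 0.84 and turned to −0.11 after quantile normalisation, differed by −0.11, a direction that quantile normalisation turned too, since *Rpl7l1* then had a log2 fold change of 0.24. *Rpl39l* rose by 1.54 on the log2 scale from 24.8 to 72.3 per kilobase, with *Rpl39* unmeasured beside it. *Rps4x* had a log2 fold change of 1.07, and its listed partner had no value.

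**Figure D2:**
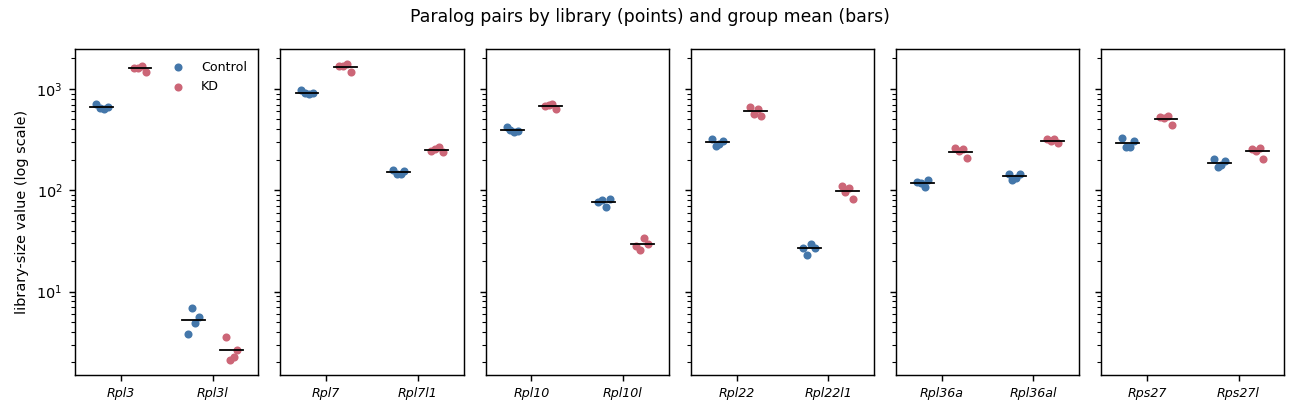
Normalised read counts on a log axis of 6 parent genes and their paralogs, with a point for each of 4 control (blue) and 4 KD (red) libraries and a bar at each group mean. *Rpl10l* and *Rpl3l* sit lower in KD while *Rpl10* and *Rpl3* sit higher in this scaling, with *Rpl3l* at 0.28 after quantile normalisation and 0.03 with spike-ins, and *Rpl22l1* climbs more than *Rpl22*.

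Many of these genes share sequence with copies elsewhere in the genome, which affects how reads are assigned. In the median member 83.1% of exon bases lay in exact 50-base stretches that also occur elsewhere in GRCm38, and 54 genes had at least 1 other locus of 95% identity over 80% of their length, up to 32 loci for *Rpl7a*. Grouped by the shared part of their exons, the genes had similar medians. Of 30 genes with 90% or more shared bases 20 were called higher (median log2 fold change 1.15), of 52 between 20% and 90% 30 were called higher (median 1.07), and of 8 under 20% 6 were called higher (median 1.10). Among those 6 were *Rpl8*, *Rps3*, *Rps15a*, *Rpl22* and *Rpl39l*, and the other 2 were *Rpl3l* and *Rps19bp1*. *Rpl22l1*, the largest rise of the large subunit, had 99.8% of its exon bases in shared stretches, while its parent *Rpl22* had 17.1%. The treatment of reads with several matches was not named in the methods read, and its part in the values was not tested.

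Intronless members show where levels are uncertain. *Rps6-ps4*, which shares 98.4% of its exon bases with other places, stood at 1275 per kilobase in control, above *Rps6* at 575, and had nearly the same log2 fold change (1.16 and 1.14). *Rps27rt* stood at 1008 per kilobase beside *Rps27* at 508. *Rpl34* itself was at 12.1 per kilobase and its retrocopy *Rpl34-ps1* at 698, with a log2 fold change of 1.31 for the retrocopy. Of 7 single-exon members none had a FACT peak at its start.

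The order of levels was little changed by KD. Per kilobase of exon, *Rps14* (1863 ± 194), *Rplp1* (1676 ± 185), *Rpl41* (1489 ± 137), *Rps6-ps4* (1275 ± 77) and *Rps2* (1266 ± 72) were the highest in control (SD, n = 4), and intervals of 1 SD overlapped between neighbours except for *Rpl41* and *Rps6-ps4*. *Rps14* remained first in KD at 4233 per kilobase. The lowest were *Rpl3l* (3.31), *Rpl34* (12.1), *Rpl32l* (17.7), *Rpl39l* (24.8) and *Rps19bp1* (33.8). Across the 90 genes, which are not replicates and share libraries, Spearman's rho between the control and KD levels per kilobase was 0.970. The median coefficient of variation between libraries was 7.39% in control and 7.29% in KD.

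Together the 90 genes took 4.105%, 3.91%, 3.91% and 4.01% of reads in the control libraries and 6.43%, 6.35%, 6.60% and 5.82% in the KD libraries. Every KD library was above every control library, and KD replicate 4 was the lowest of its group. The mean share was 3.98% ± 0.09 in control and 6.30% ± 0.34 in KD (SD, n = 4 each), and the 95% Wilson interval of each share, which covers counting error only, was narrower than the spread between libraries. Large-subunit genes held 54.6% to 55.2% of these reads in every library, so the balance between the subunits moved by less than 1 percentage point.

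The size of the rise depended on the scaling, while its sign for the median gene did not. In the deposited spike-in scaling the median over all genes rose to 0.95 and that of the ribosomal protein genes to 2.12. There 88 of 90 were called higher, beside 48.1% of all genes. In RPM without TMM factors, a setting chosen after seeing the data, the medians were −0.45 and 0.66. Relative to the median of all genes, the ribosomal protein genes stood 1.13 higher in the library-size scaling, 1.16 higher with spike-ins and 1.11 higher in RPM. These scalings differ by a factor common to all genes of a library. It drops out of this difference apart from the added 0.5, so their closeness is no independent result. After quantile normalisation this difference was 0.32, and after a loess correction for exon length 0.59. Then 8 and 10 of the 90 genes were called higher, beside 9.87% and 6.26% of all genes. After quantile normalisation the ribosomal protein genes were thus called higher no more often than genes at large. By adjusted p alone 72 and 76 rose, beside 33.7% and 36.1% of all genes. In 79 of the 90 genes the log2 fold change was above 0 in every fit made.

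**Figure D3:**
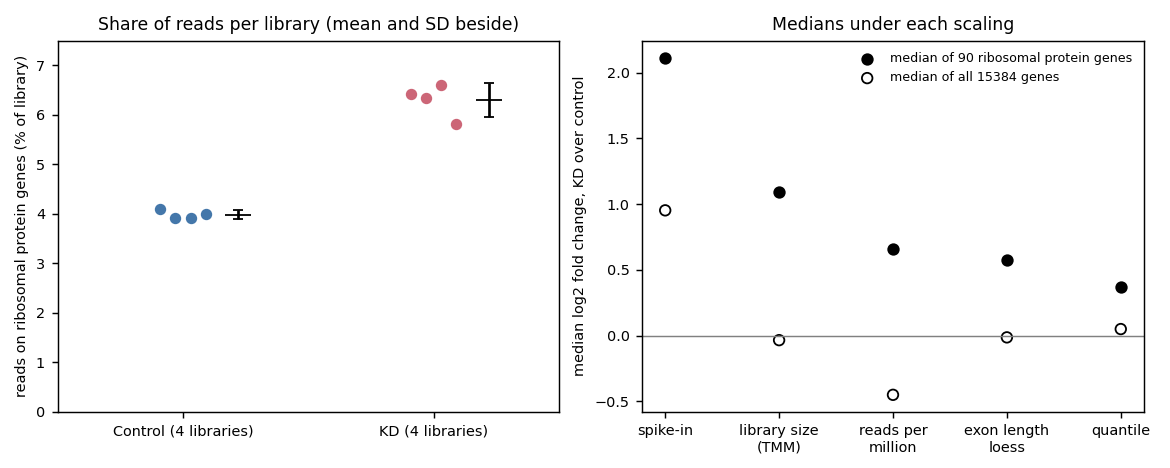
Left, reads on the 90 genes as a percentage of all recovered reads, with a point per library and the mean with its SD beside each group; right, median log2 fold change of KD over control for the 90 genes (filled) and for all 15384 genes (open) under 5 scalings. The KD libraries sit between 5.82% and 6.60%, all above the control libraries, and the filled points stay above the open ones by 0.32 to 1.16. In the spike-in, library-size and RPM scalings this gap is nearly the same because a factor per library drops out of it.

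Against the median ribosomal protein gene of the same library, 25 genes were higher and 25 lower at the adjusted p of limma with Benjamini-Hochberg adjustment, where 2.74% of all genes were higher and 85.6% lower. The median of the members was itself subtracted, so their even split and the downward shift of the other genes follow from the centring. No member passed the fold threshold upwards, and *Rpl10l* (−2.44) and *Rpl3l* (−1.94) passed it downwards, as did 54.8% of all genes. *Rps21* stood furthest above the median gene at 0.95 ± 0.06 (SE), with *Rpl22l1* at 0.79 and *Rpl8* at 0.78. *Rps27l* (−0.68), *Rps24* (−0.44) and *Rps27rt* (−0.33) stood below it in the small subunit. *Rps19*, at 0.00 with an adjusted p of 0.968 in limma with Benjamini-Hochberg adjustment, lay at the median.

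Exon length and abundance moved with the result. The measured ribosomal protein genes had a median exon length of 693.5 bp against 2689.5 bp over all genes tested, and the median log2 fold change fell from 0.54 among the 1539 shortest genes to −0.46 among the 1539 longest. Among other genes under 1000 bp with a control mean of 100 or more, 85 of 165 (51.5%) were called higher at a median of 1.02. In the same class 41 of 60 ribosomal protein genes (68.3%) were called higher at a median of 1.11. Among genes of 1000 bp or more at that level, 8 of 17 ribosomal protein genes (47.1%, median 0.99) and 144 of 1661 others (8.67%, median 0.34) were called higher. The short and abundant ribosomal protein genes lay close to other short and abundant genes, and the part of length in the rise was not tested.

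**Figure D4:**
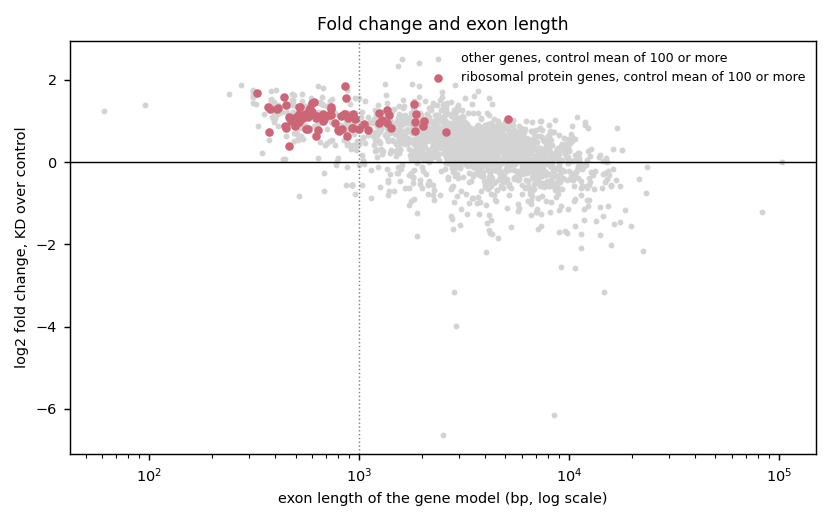
Log2 fold change of KD over control against exon length of the gene model on a log axis, for genes with a control mean of 100 or more, with ribosomal protein genes in red, other genes in grey and a dotted line at 1000 bp. Red points sit with the grey ones under 1000 bp (medians of 1.11 and 1.02) and mostly above them beyond it (0.99 and 0.34).

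Other genes, most of them of translation or ribosome biogenesis, were taken from lists chosen with earlier results of these data known. Of the ribosomal protein genes that carry other names, *Fau*, whose product is RPS30 fused to a ubiquitin-like protein, went from 86.9 ± 2.3 to 373 ± 20 (SD, n = 4 each, log2 fold change 2.09). *Rack1*, a scaffold on the small subunit, had 0.83, and of 3 such genes measured 1 was called higher and all 3 rose. A list of 25 further TOP transcripts held mostly translation factors, but also *Npm1*, *Nap1l1*, *Hnrnpa1* and the non-coding *Gas5* and *Snhg1*. Of these 25, 7 were called higher, 24 rose and *Pabpc1*, the poly(A)-binding protein, fell by 0.59, with a list median of 0.80. Of 29 other initiation and elongation factors 4 were called higher, 24 rose and 3 fell, from *Eif2b5* at 1.41 to *Eif5b* at −0.93. Of 70 measured ribosome biogenesis genes 9 were called higher, 62 rose and 2 fell, with *Nop10*, an H/ACA snoRNP protein, at 1.40 and *Nle1* at −0.30. Over all genes 8.07% were called higher and 35.4% rose. Among the factors and biogenesis genes, the shares called higher lay somewhat above the former, and the shares that rose lay far above the latter. Their medians of 0.64 and 0.66 lay below that of the ribosomal protein genes.

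Genes that regulate ribosomal protein synthesis moved in both directions. Of 19 measured, none was called higher, 1 was called lower, 8 rose and 5 fell, with a median of −0.16. Over all genes 8.07% were called higher and 20.6% lower, while 35.4% rose and 37.3% fell. *Mdm2*, the ubiquitin ligase that RPL5 and RPL11 bind, went from 633 ± 71 to 220 ± 7 (SD, n = 4 each, log2 fold change −1.52). *Mycn* rose by 0.99 and *Gabpa*, the ETS factor named above, by 0.98, *Trp53* had 0.01, and *Larp1*, the repressor of TOP mRNAs, fell by 0.19. The threshold by adjusted p is that of limma with Benjamini-Hochberg adjustment throughout.

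Markers of other cell types moved as well. Summed levels of 5 measured of 8 neural progenitor markers were 83.7 to 107 in control and 145 to 155 in KD, with 1 called higher (*Tubb3*) and 2 lower. *Tubb3* alone went from 33.6 to 108, and the other 4 (*Map2*, *Pax6*, *Nes* and *Sox1*) fell by adjusted p, so the list median was −0.96. For 7 measured of 9 fibroblast markers they were 83.7 to 111 and 32.5 to 37.9, with 4 called lower, and for 7 of 8 primitive endoderm markers 196 to 207 and 130 to 148, with 4 called lower. Over all genes 8.07% were called higher, 20.6% were called lower and 37.3% fell by adjusted p. The part of these cell types in the levels of ribosomal protein genes was not tested.

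FACT peaks lay at the starts of most ribosomal protein genes. An SSRP1 peak reached into 1000 bp on either side of the TSS in 63 of 91 genes (69.2%) and a SUPT16 peak in 46 (50.5%), beside 24.4% and 14.4% of all genes with an RNA-seq value. Among other genes with a control mean of 100 or more the shares were 41.3% and 27.3%. Both lists had a peak at 44 members, SSRP1 alone at 19, SUPT16 alone at 2, of which *Rpl12* is 1, and neither at 26. By subunit, SSRP1 peaks lay at 37 of 56 large-subunit and 25 of 34 small-subunit genes, and SUPT16 peaks at 25 and 21.

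The peaks were wide. The median SSRP1 peak at a member's TSS spanned 1078 bp, against 588 bp at all genes with a value and 686 bp at other abundant genes. An SSRP1 peak of 1000 bp or more lay there in 33 members (36.3%), beside 5.11% of all genes with a value and 12.3% of other abundant genes. SUPT16 peaks had medians of 630 bp, 420 bp and 490 bp. Among the widest SSRP1 peaks were those of *Rps2* at 4900 bp, *Rpl10a* at 4410 bp and *Rps20* at 4214 bp. The widest SUPT16 peaks were those of *Rpl10a* at 5110 bp, *Rpl12* at 4410 bp and *Rps2* at 3150 bp. The *Rpl10a* peak (chr17:28328371-28333480, mm10) covered the whole gene, which runs from 28328471 to 28331033.

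Gene ends were occupied as well. An SSRP1 peak reached into 1000 bp on either side of the gene end in 61 members (67.0%) and a SUPT16 peak in 53 (58.2%), against 237 and 131 of 1826 other genes with a control mean of 100 or more. A peak lay at both the start and the end of 53 members for SSRP1 and of 36 for SUPT16, against 167 and 92 of the 1826 other genes. Ribosomal protein genes are short, so 1 broad peak can reach both. The share of members under an SSRP1 peak was highest 200 bp into the gene, at 62.6% against 30.2% of the other abundant genes, and for SUPT16 150 bp into the gene, at 39.6% against 17.6%.

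**Figure D5:**
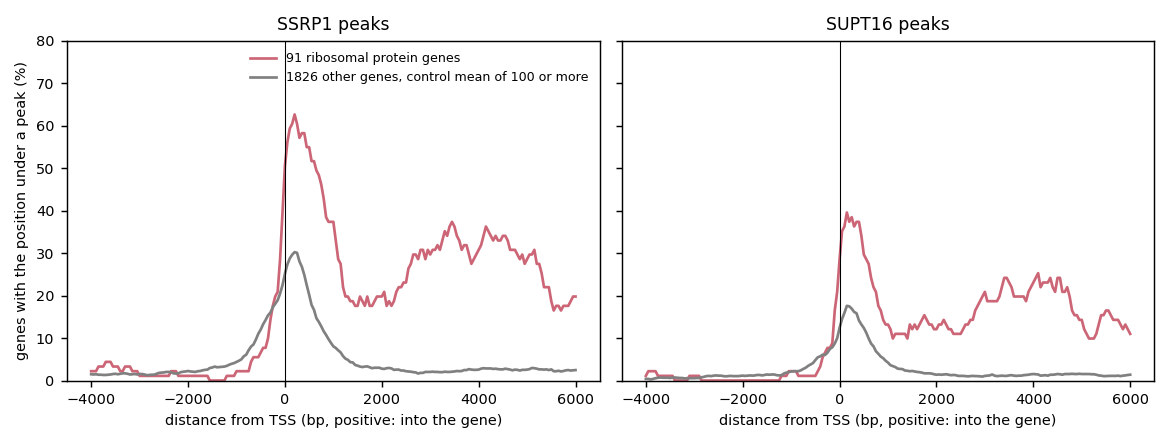
Percentage of genes whose position lies under an SSRP1 (left) or SUPT16 (right) peak, by distance from the TSS in bp with positive values into the gene, for 91 ribosomal protein genes (red) and 1826 other genes with a control mean of 100 or more (grey). The red curve peaks at 62.6% and 39.6% just inside the gene and stays above the grey curve further downstream, where many of these short genes have reached their ends.

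Fold changes were then grouped by the presence of a peak. The median log2 fold change was 1.08 for the 44 members with peaks in both lists, 1.04 for the 21 with a peak in 1 list and 1.16 for the 25 measured members with none, so the medians lay close together. *Rps21*, *Rps29* and *Rpl13a*, among the largest rises, had no peak at the start in either list. *Rpl22l1* had peaks of 784 bp and 210 bp and *Rpl8* of 1078 bp and 700 bp. *Rpl10l* had none, and *Rpl3l* had an SSRP1 peak of 294 bp.

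Chromatin-bound RNA of E14 cells, which holds transcripts still attached to their genes, had total raw counts of 3441643 and 3393923 in the 2 libraries. Ribosomal protein genes took 2544 of them (0.0739%, 95% Wilson interval 0.0711% to 0.0768%) and 3426 (0.101%, 0.0976% to 0.104%), while they took 3.98% of reads in control RNA-seq. These shares differ in their base, since chromatin RNA was counted unfiltered over 27179 genes and the RNA-seq values cover 15384 genes. The median member had 21 and 28 counts, against 5 and 8 over all genes with an RNA-seq value, and 70 members had 10 or more in both libraries. *Rpl8* had 174 and 204 counts and *Rps3* 103 and 160, among the highest. *Rps27rt*, *Rpl34-ps1* and *Rpl31-ps12* had 0 in both, which allows up to 3 counts in a library, and all of them are single-exon genes. *Rps6-ps4* had 5 and 3 counts beside 27 and 40 for *Rps6*, although it stood above *Rps6* in RNA-seq, and *Rpl34* had 18 and 13 beside 0 for its retrocopy.

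Levels in chromatin-bound RNA followed those in control RNA-seq in part. Per kilobase of exon, Spearman's rho across the 90 genes was 0.528, and on values not divided by length it was 0.616. *Rpl10*, with 33 and 45 counts, and *Rplp0*, with 31 and 54, lay above the median member, and *Rpl11* had 9 in both libraries. *Rpl3l*, with 2 and 2 counts, was low in both kinds of RNA.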

How the data were processed

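RNA-seq was analysed in 4 control and 4 KD libraries of E14 mESCs, with groups taken from the sample labels. Reads were aligned to mm10 with STAR, version 2.5.1b per the submitters' processing notes and 2.4.1b per the study's methods (2.4.1b for chromatin RNA in the notes), and, per the methods, counted with featureCounts, scaled with TMM factors of edgeR and filtered on low counts. The signal per library was deposited by the authors scaled to library size and, in further columns, to spike-ins. The values are not whole counts, but whole reads were recovered from them within 0.1, and the column sums showed that the library-size signal already carries TMM factors. Raw counts of chromatin RNA were deposited by the authors unscaled. Peaks were called by the authors with Bowtie2 2.2.6 alignments and PePr over 2 replicates. The counting of reads with several matches was not given in the sources used here. Tables of the authors' own fold changes and p-values for genes and exons were not used.

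Fitted here were limma 3.58.1 (R 4.3.3, trend, log2(value + 0.5)) on all 15384 genes, and, as alternatives, edgeR 4.0.16 and DESeq2 1.42.0 on the reads so recovered. On simulated counts of 15384 genes with 200 changed, each tool recovered 100% with 0 false calls. In the libraries themselves 5447 genes rose and 5745 fell, and recovery with that many moving genes was not tested. Exact permutation tests were used for paralog ratios. Shared sequence was measured with blastn 2.17.0 and exact 50-base stretches, and promoters came from RefSeq GRCm38.p6. Depth differed between the groups, and no 2 libraries of a group agreed within sampling noise (chi-square per degree of freedom of 1.88 to 6.61). The members and all lists were chosen with earlier results of these data known. Named with values are the 4 largest and 4 smallest fold changes per subunit, paralog pairs, 12 genes of known roles, the 5 highest and lowest levels, the widest peaks and, from each other list, the largest rise and fall. Other names, among them *Rpl4*, *Rpl7a*, *Rpl19*, *Rpl27a*, *Rpl34-ps1*, *Rpl31-ps12*, *Rpl35*, *Rps15a*, *Rack1*, *Gabpa*, *Trp53* and *Larp1*, were chosen after their values were seen. Alternatives covered the test, pseudocount, filter, scaling, exon length, replicate block, leaving out each library, membership, windows and peak width. MNase-seq, ATAC-seq, NET-seq, the set without spike-ins and NPCs were not analysed here, and single values of a few genes are not reported here.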

Additional observations from a re-analysis of the deposited data

Results flagged for a closer look

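With 4 libraries in a group, a library was picked out where its gap to the nearest other library as a part of the whole range of the group exceeded Dixon's critical value at 95%. Chance picks about 1 in 20 groups, and 3 of 106 groups tested were picked. *Rpl38* stood at 116 in control replicate 1, with the other control libraries between 105 and 107. *Rps2* stood at 2064 in KD replicate 4, with the other KD libraries between 2239 and 2268. The log2 ratio of *Rpl36al* to *Rpl36a* was 0.51 in KD replicate 4, with the other KD libraries between 0.30 and 0.33, and without that library the difference between the groups was 0.10 in place of 0.14.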

How the results depend on the processing

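Of the 90 measured genes, 56 were called higher in the main setting, and 52 to 61 with each library left out in turn, with 1 to 2 called lower and a median log2 fold change of 1.05 to 1.13; 52 genes were called higher in each of these fits. The second gene called lower was *Rpl3l*, without control replicate 1 or without KD replicate 1, and also in edgeR, in RPM and after the length correction (2 called lower each). With the spike-in scaling 88 were called higher and 0 lower (median 2.12), after quantile normalisation 8 (0.37), after the length correction 10 (0.58) and in RPM without TMM factors, chosen after seeing the data, 11 (0.66). The shares of all genes called higher in these settings were, in the same order, 48.1%, 9.87%, 6.26% and 2.23%, beside 8.07% in the main setting. Without *Rps19bp1*, *Rpl7l1* and the testis or muscle paralogs 0 of 85 were called lower. The cause of these shifts was not tested.

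Signs turned after quantile normalisation for *Rpl3l* (0.28), *Rps24* (−0.18), *Rps27l* (−0.13), *Rpl7* (−0.11), *Rpl19* (−0.11), *Rps2* (−0.073) and *Rpl4* (−0.064), after the length correction for *Rps27l* (−0.40), *Rpl32l* (−0.38), *Rps27rt* (−0.13) and *Rpl34* (−0.034), in RPM for *Rpl32l* (−0.14) and *Rps27l* (−0.043), and with spike-ins for *Rpl3l* (0.026). Over all genes 1242 were called higher and 3163 lower, which became 7394 and 1082 with spike-ins, 343 higher in RPM, 1656 lower after quantile normalisation, 2024 lower with a mean of at least 5, and 1210 to 1316 higher and 3044 to 3331 lower without single libraries. Against the median member 24 to 29 were higher and 24 to 28 lower without single libraries, with 0 and 2 past both thresholds. The share of reads without the 20 highest other genes was 4.50% in control and 7.22% in KD. SUPT16 peaks of at least 500 bp lay at 29 starts in place of 46, the rank correlation of chromatin RNA without length was 0.616, and CTTTC anywhere in the window was held by 79.7% of promoters.

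Replicate numbers did not pair the libraries, since deviations of same-numbered libraries correlated at −0.06 to 0.02. With a replicate block 56 were called higher and 1 lower, and no other call moved by over 1.5 times. For the paralog ratios the block leaves 4 pairs, where an exact sign-flip test cannot go below p = 0.125, the value of each pair, and 3 against 4 libraries cannot go below an exact p of 0.0571. Without single libraries the differences in log2 ratio were −2.20 to −2.09 for *Rpl10l*, −2.31 to −2.01 for *Rpl3l*, 0.81 to 0.91 for *Rpl22l1*, 0.10 to 0.17 for *Rpl36al*, −0.14 to −0.09 for *Rpl7l1* and −0.43 to −0.40 for *Rps27l*. Depth limits the low genes: *Rpl3l*, *Rpl34* and *Rpl32l* rest on values below 15, where single reads weigh more.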
